A study of Homo sapiens with 66 samples.

Results

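The circadian clock genes examined here were BHLHE40, PER1, PER2, PER3, CRY1, CRY2, DBP, NR1D1, NR1D2 and RORA. They are 10 of the 20162 protein-coding genes on chromosomes 1 to 22, X and Y. These genes were chosen with earlier results of these data known, so counts and medians over them are descriptive. A peak belonged to one of them if its centre lay in the gene body or within 50 kb of a transcription start site (TSS). It also had to lie nearer to that gene than to any other protein-coding gene. Noncoding genes could not claim peaks. By this rule 246 of the 131425 peaks were assigned to clock genes, and 9 of the 10 genes had at least 1 peak, beside 59.1% of all genes.

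The mammalian clock is a feedback loop of transcription. CLOCK and BMAL1 bind the E-box, CACGTG, and switch on the PER and CRY genes, whose proteins then repress CLOCK and BMAL1. REV-ERB proteins, encoded by NR1D1 and NR1D2, and ROR proteins such as RORA act on the RORE motif, and DBP acts on the D-box. BHLHE40, also called DEC1, is a repressor that binds E-boxes. The hypoxia-inducible factors (HIFs) belong to the same family of basic helix-loop-helix PAS proteins as CLOCK and BMAL1, and bind the hypoxia response element (HRE), whose core is ACGTG or GCGTG. The E-box holds the letters ACGTG on each strand, so every E-box counts as an HRE core too.

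HIF-1α, HIF-1β and HIF-2α binding was mapped by chromatin immunoprecipitation and sequencing (ChIP-seq) in 50 libraries, which formed 25 groups of 2 set by antibody and condition. Oxygen controls the level of the α isoforms, each of which pairs with HIF-1β. HKC-8, a kidney proximal tubule line, was held for 6 h at 3% oxygen, or at 0.5% for 6 h, for 16 h or for 48 h. A further experiment at 0.5% oxygen for 16 h used wild-type HKC-8 and HKC-8 in which CRISPR-Cas9 had removed HIF-1α or HIF-2α, each a single clone. RCC4, a renal carcinoma line lacking a working VHL gene, was used in normal oxygen, and HepG2, a liver carcinoma line, at 0.5% oxygen for 16 h. The HIF-1α libraries numbered 16, the HIF-2α libraries 16 and the HIF-1β libraries 18.

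Each library was given as a list of called peaks with no read depth. The lists held 237 to 8279 peaks, and a gene can lack a peak in a short list because the site fell just under the caller's limit. The strength of a peak is therefore given as its place in its own list, in percent from the top, where peaks with equal scores share their average place. The score piles up at 3100, which 342 peaks of 18 libraries hold, so peaks at that value cannot be ordered. A place in percent also becomes smaller when a list is lengthened by weak peaks. The HepG2 libraries for the isoforms stood apart from their labels. The shares of peaks within 1 kb of a TSS were 6.53% and 28.1% in the HIF-1α libraries and 30.0% and 7.88% in the HIF-2α libraries. HIF-1α replicate 2 and HIF-2α replicate 1 shared 50.1% of the shorter list, against 35.0% for the HIF-1α replicates and 25.9% for the HIF-2α replicates. HIF-1α replicate 2, the longest of these lists at 6851 peaks, also shared 44.5% with HIF-2α replicate 2. HIF-1α replicate 1 shared 26.8% with HIF-2α replicate 1 and 33.2% with HIF-2α replicate 2. The main comparisons of the isoforms are given without HepG2 as well.

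The sequences below are those of sites that carry main results, read from GRCh37 on the plus strand, 5′ to 3′. Capitals mark HRE cores on either strand, including E-boxes. The first is the centre of the site past the 3′ end of BHLHE40, chr3:5028586-5028786.
BHLHE40 downstream: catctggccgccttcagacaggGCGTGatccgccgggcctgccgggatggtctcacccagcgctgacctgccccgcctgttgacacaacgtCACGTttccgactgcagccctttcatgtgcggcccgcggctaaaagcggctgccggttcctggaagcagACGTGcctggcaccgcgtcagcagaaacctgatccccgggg
This stretch held 3 HRE cores. One of them, 7555 bp from the start site, is part of CACGTT, the E′-box variant of the E-box found at clock genes.
The next sequences are the RORA site found in RCC4 and HepG2, chr15:60884341-60884541, and the CRY1 upstream site found with the HIF-2α antibody, chr12:107488003-107488203.
RORA internal: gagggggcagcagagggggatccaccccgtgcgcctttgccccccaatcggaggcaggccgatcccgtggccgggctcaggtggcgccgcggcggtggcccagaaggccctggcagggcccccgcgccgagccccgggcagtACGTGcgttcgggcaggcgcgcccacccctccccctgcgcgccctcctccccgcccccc
CRY1 upstream: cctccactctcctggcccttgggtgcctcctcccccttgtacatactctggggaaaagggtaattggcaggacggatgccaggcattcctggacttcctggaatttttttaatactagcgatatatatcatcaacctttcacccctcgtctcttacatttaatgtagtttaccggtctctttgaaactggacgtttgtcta
The RORA stretch held 1 HRE core, and the CRY1 stretch held none of the motifs searched. The last are the PER2 intronic site, chr2:239169744-239169944, and the PER1 site past its 3′ end, chr17:8042309-8042509.
PER2 intron: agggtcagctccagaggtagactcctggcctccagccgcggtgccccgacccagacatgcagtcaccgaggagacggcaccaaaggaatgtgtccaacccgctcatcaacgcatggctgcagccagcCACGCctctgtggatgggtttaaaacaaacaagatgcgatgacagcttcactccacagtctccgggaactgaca
PER1 downstream: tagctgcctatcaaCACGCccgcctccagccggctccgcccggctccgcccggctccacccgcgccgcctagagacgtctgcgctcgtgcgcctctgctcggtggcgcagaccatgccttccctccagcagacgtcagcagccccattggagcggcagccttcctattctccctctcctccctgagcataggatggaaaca
The PER2 and PER1 stretches each held 1 HRE core and no E-box.

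BHLHE40 had a peak in 49 of 50 libraries, more than any other clock gene. These were 15 of 16 HIF-1α libraries, 16 of 16 HIF-2α libraries and 18 of 18 HIF-1β libraries. The gene was called in both replicates of 24 of 25 groups, and the exception was HIF-1α at 3% oxygen, where replicate 2 lacked it. Only 6 of the 20162 genes had a peak in 49 or more libraries, or 0.0298%. PER2 followed with 23 libraries and RORA with 20, PER1 and CRY1 had 14 each, DBP 10, and NR1D1 and NR1D2 6 each. CRY2 had a peak in 1 library, HIF-1β replicate 2 of HepG2, and PER3 had none, which says that no peak was called there and not that HIF was absent. The median over the 10 genes was 12 libraries, beside 1 over all protein-coding genes and 3 over the genes with any peak.

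**Figure D1:**
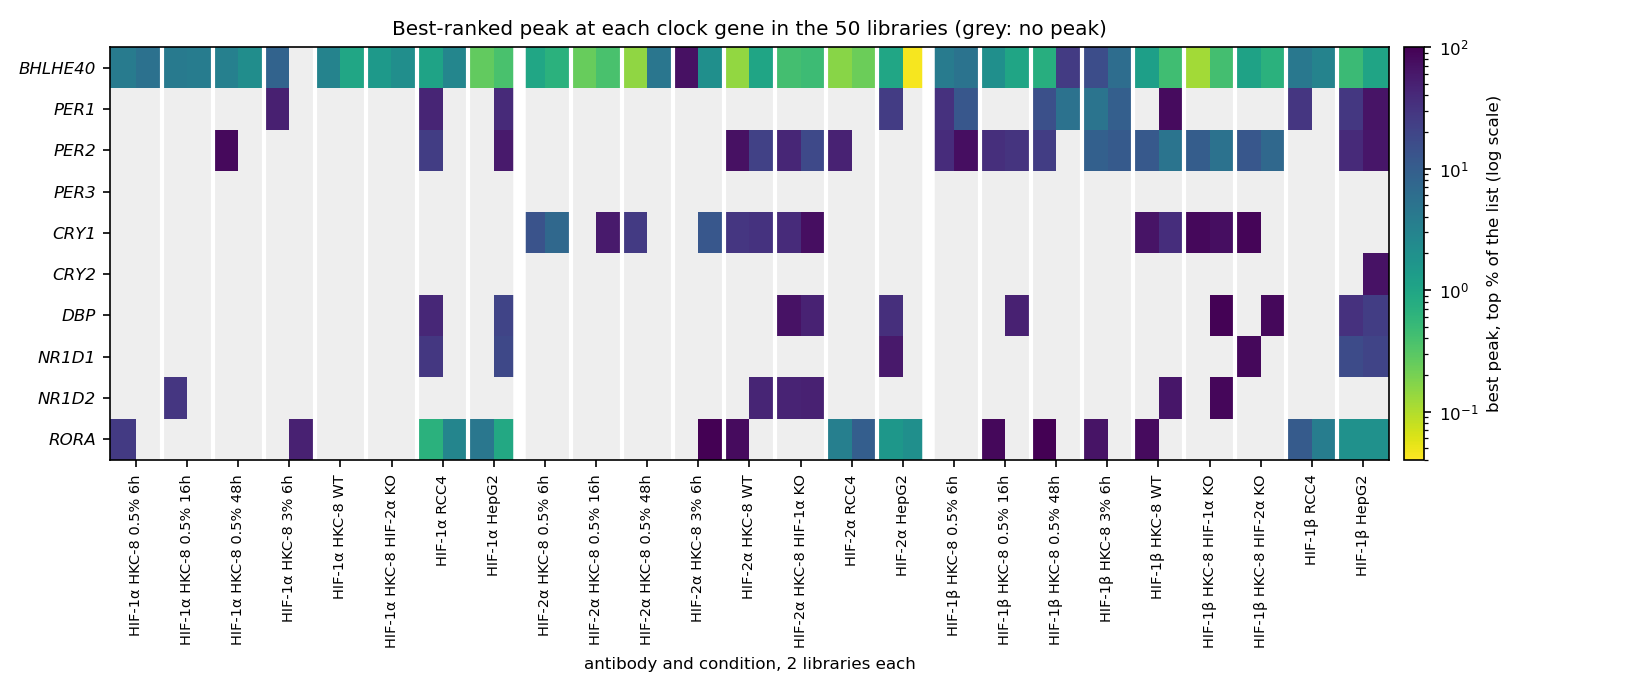
Rows are the 10 clock genes and columns the 50 libraries, in pairs of replicates by antibody and condition; colour gives the place of the gene's best peak in its list on a log scale, and grey means no peak. BHLHE40 is filled in 49 of 50 columns, whereas PER3 is empty and RORA is strongest in RCC4 and HepG2.

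The number of clock genes with a peak in both replicates ran from 0 to 6 per group, against a share of all genes that also differed widely. In HKC-8 at 0.5% oxygen for 6 h it was 1 with the HIF-1α antibody, 2 with HIF-2α and 3 with HIF-1β, where 1.08%, 1.27% and 1.79% of all genes were called. At 16 h it was 1, 1 and 2, beside 1.31%, 1.35% and 3.26% of all genes. At 48 h it was again 1, 1 and 2, beside 0.585%, 0.263% and 1.1%. At 3% oxygen for 6 h it was 0, 1 and 3, beside 0.402%, 0.556% and 1.52%. In the wild-type cells of the knockout experiment it was 1, 3 and 3, beside 3.9%, 9.63% and 13.6%. Cells without HIF-1α had 5 for HIF-2α and 3 for HIF-1β, beside 11.3% and 8.02%. Cells without HIF-2α had 1 for HIF-1α and 2 for HIF-1β, beside 2.6% and 5.54%. In RCC4 all 3 antibodies gave 2, beside 4.38%, 4.49% and 1.87%. In HepG2 they gave 2, 2 and 6, beside 5.54%, 5.81% and 9.36%. BHLHE40 was in every one of these counts except the 0. In all, 8 of the 10 genes were called in both replicates of some group, beside 25.5% of all genes. Without HepG2 it was 7, beside 20.3%, and in HKC-8 alone 6, beside 18.5%. The genes were chosen with earlier results of these data known, so these counts test nothing.

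The peaks merged into 37 sites, of which 18 were seen in 1 library and 13 in at least 5. BHLHE40 had 8 sites and a main pair. The promoter site, chr3:5018413-5022764, was called in 45 libraries with its centre at -489 bp from the start site. The downstream site, chr3:5026851-5029483, was called in 48 libraries and lay 7.56 kb from the start site and 1.68 kb past the 3′ end. Weaker sites 16.0 kb and 44 kb downstream were called in 13 and 16 libraries. The long noncoding gene BHLHE40-AS1 runs the other way from the same promoter, and the lists do not separate the 2 genes.

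**Figure D2:**
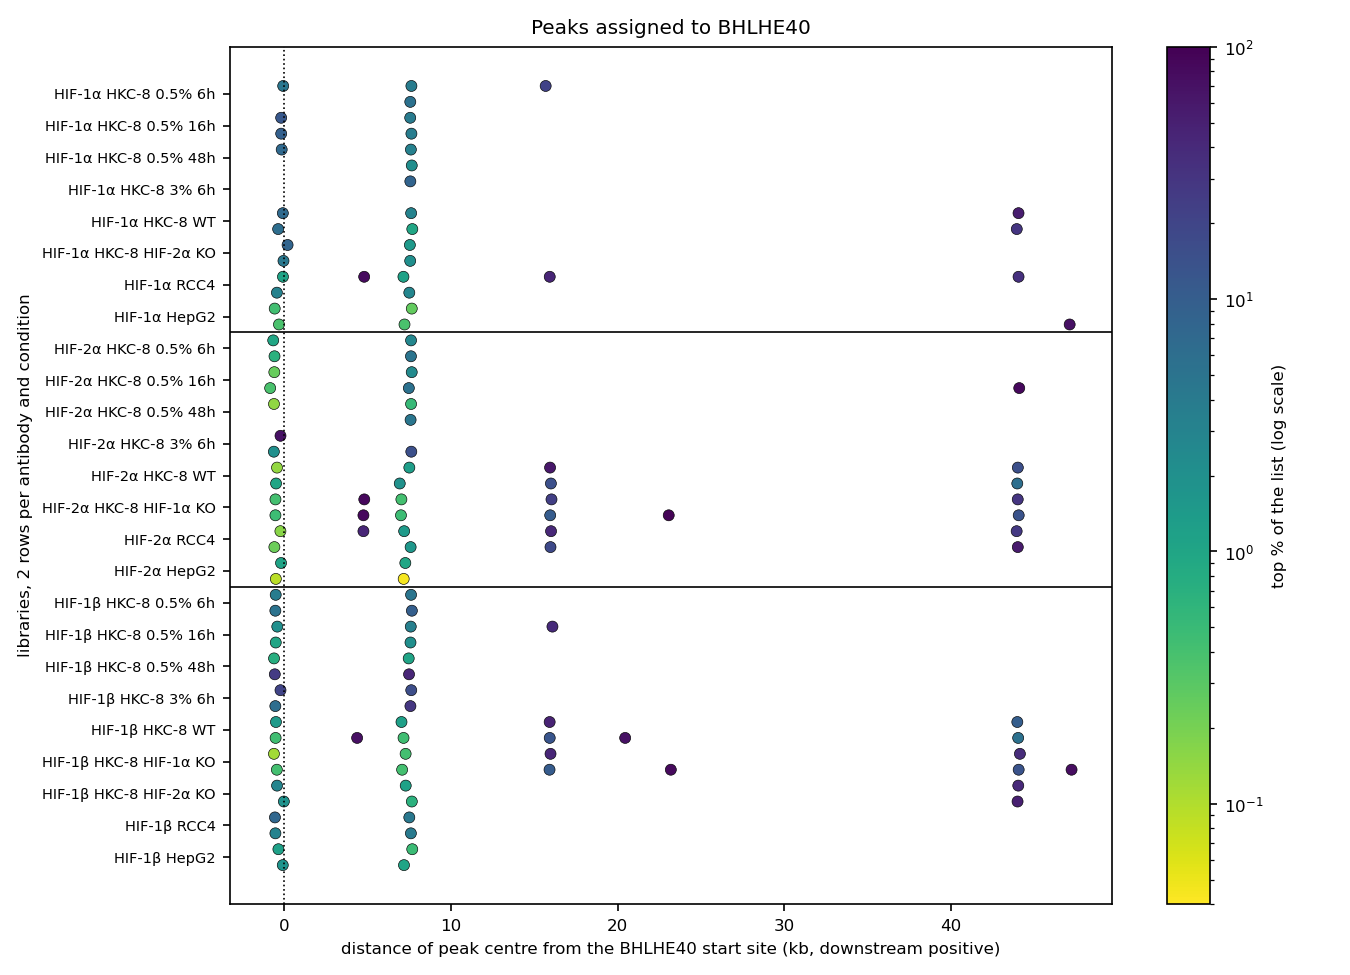
Each point is a peak assigned to BHLHE40, at its distance in kb from the start site (dotted line), with 1 row per library and colour for its place in the list on a log scale. Columns of points stand at the promoter and near 7.56 kb in nearly every library, and weaker ones near 16.0 and 44 kb.

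At the promoter site the places were higher in the HIF-2α than in the HIF-1α lists of several conditions, in lists of unequal length. In wild-type HKC-8 of the knockout experiment it stood at 0.143% and 0.993% with HIF-2α, and at 7.0% and 6.06% with HIF-1α, in lists of 4537 and 6749 peaks and of 1913 and 1535 peaks. At 0.5% oxygen for 16 h it stood at 0.25% and 0.381% with HIF-2α and at 12.1% and 9.25% with HIF-1α, or places 3 and 4 of 1198 and 1051 peaks and 159 and 88 of 1313 and 951. The values of the isoforms did not overlap in either condition, which 2 libraries against 2 cannot test. The share of all sites without overlap in these conditions is not given. RCC4 gave 0.162% and 0.234% with HIF-2α, and 1.06% and 3.11% with HIF-1α. HepG2 did not separate them, with 1.06% and 0.0889% for HIF-2α and 0.432% and 0.38% for HIF-1α. At 3% oxygen the HIF-2α replicates differed widely, at 70.6% and 2.05%, and neither HIF-1α library had the peak. Over all libraries with the peak the medians were 5.34% in 12 HIF-1α, 0.411% in 15 HIF-2α and 1.99% in 18 HIF-1β libraries. Without HepG2 they were 6.53%, 0.411% and 2.44%.

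The rank of every merged site was compared between isoforms within the 7 conditions that had both, with a site missing from a list set to 0 on a scale where 100 is the top. This readout was chosen after the data had been seen. At the BHLHE40 promoter HIF-1α averaged 67.8 ± 44.6 and HIF-2α 87.4 ± 31.3 (SD, n = 14 each). HIF-2α was higher in 6 of 7 conditions, but the exact permutation test gave p = 0.0834, and 0.694 after Benjamini-Hochberg adjustment over 9413 sites. Without HepG2 the difference was -22.8 and the adjusted exact permutation p = 0.711. In that test 0.223% of sites were called higher and 0.329% lower with HIF-1α. At the downstream site the means were 90.1 ± 26.0 and 89.9 ± 26.1, a difference of 0.26 with an exact permutation p = 0.828, and of 0.27 with p = 0.848 by the same exact test without HepG2. The centres of the promoter peaks also lay apart, with medians from the start site of -162 bp (HIF-1α), -524 bp (HIF-2α) and -506 bp (HIF-1β), and ranges that overlapped.

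**Figure D3:**
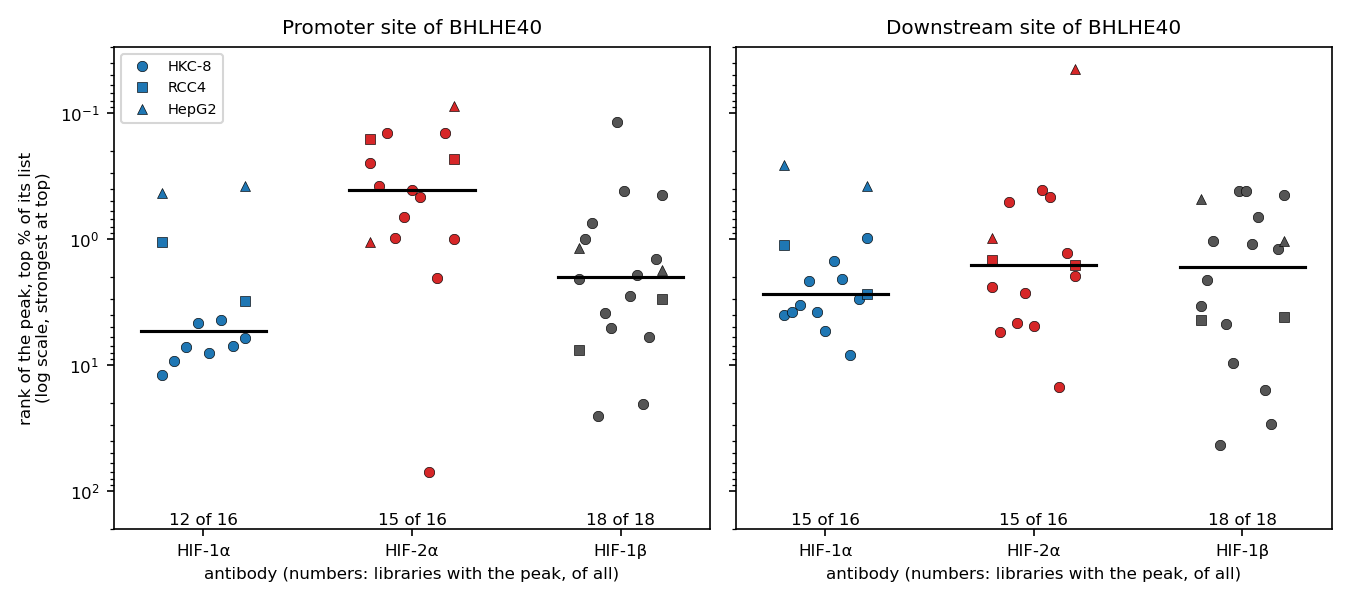
Points are libraries with the peak, by antibody, on a log scale with the strongest place at the top; shapes mark the cell line, bars the median, and the numbers the libraries with the peak. At the promoter the HIF-2α median is 0.411% and the HIF-1α median 5.34%, whereas at the downstream site they are 1.61% and 2.74%.

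Loss of one isoform left both BHLHE40 sites in the lists of the other. Without HIF-1α, HIF-2α gave the promoter at 0.411% and 0.466%. The downstream site had the same score of 3100 in these lists, so the sites were tied there and could not be ordered. Without HIF-2α, HIF-1α gave the promoter at 8.03% and 4.37% and the downstream site at 1.49% and 2.08%. HIF-1β gave the promoter at 0.118% and 0.415% without HIF-1α and at 2.82% and 1.92% without HIF-2α. With 2 libraries against 2 the smallest possible p is 0.333, so no test was made.

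Among the repressors of the loop, PER2 was marked mainly by HIF-1β. Its intronic site, chr2:239169069-239171014, 27.4 kb from the nearest start site, was called in 0 of 16 HIF-1α, 5 of 16 HIF-2α and 13 of 18 HIF-1β libraries. The HIF-2α calls were in wild-type HKC-8, at 69.6% and 22.2%, in cells without HIF-1α, at 43.4% and 17.6%, and in 1 RCC4 library, at 46.6%. HIF-1β placed the site at 9.86% and 5.31% without HIF-1α, and at 11.8% and 7.1% without HIF-2α. In the latter cells neither HIF-1α library had it. The PER2 promoter was called in 4 libraries, 1 of RCC4 and 3 of HepG2.

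PER1 had its main site 1.38 kb past the 3′ end, chr17:8041691-8043298, in 3 HIF-1α, 1 HIF-2α and 9 HIF-1β libraries. HIF-1β called it in both replicates at 6 h and 48 h of 0.5% oxygen and at 3% oxygen, with places of 33.2% and 12%, 14.8% and 5.27%, and 4.9% and 9.32%. It was in neither replicate at 16 h. Over the 3 antibodies PER1 had a peak in 2 of 6 libraries at 6 h and 0 of 6 at 16 h, with an exact permutation p = 0.333.

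CRY1, whose protein represses CLOCK and BMAL1, had no HIF-1α peak in any of 16 libraries, and had peaks in 9 of 16 HIF-2α and 5 of 18 HIF-1β libraries. Within the 7 matched conditions the count was 0 of 14 for HIF-1α and 7 of 14 for HIF-2α. The exact permutation test gave p = 0.00694, and adjustment over 7037 genes gave 0.737, so CRY1 was not called. In that comparison 0.0% of genes passed in either direction, and 215 had an unadjusted p under 0.05. The count was 0 against 7 without HepG2 too, and fell to a difference of -2 when noncoding genes could claim peaks.

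The HIF-2α calls at CRY1 came from 2 places. The upstream site, chr12:107487601-107488607, with its centre at -776 bp from the start site, was in 7 HIF-2α libraries of HKC-8 and in no HIF-1α or HIF-1β library. Its places were 13.4% and 7.17% at 0.5% oxygen for 6 h, and 29.3% and 85.9% in the wild type of the knockout experiment. It was also called in 1 replicate each at 16 h (56.9%), at 48 h (26.6%) and at 3% oxygen (12.1%). Neither HIF-2α library of the cells without HIF-1α had it. On the rank scale the isoforms differed by -33.5 there, with an exact permutation p = 0.00694 and an adjusted value of 0.233. That value depends on which sites enter the test. Among sites in at least 4 libraries the adjusted exact permutation p = 0.0819, and among sites in at least 7 it was 0.0285. The last limit was tried first, when the site was already known to have 7 calls. The site met that limit through HIF-2α libraries alone, so the value is not used as a call. The intronic site, chr12:107458448-107459460, was in 4 HIF-2α and 5 HIF-1β libraries, all from the knockout experiment.

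RORA, an activator at the RORE, had a site called in RCC4 and HepG2 and not in HKC-8. The lines were also separate experiments, and RCC4 differed in oxygen too, so these cannot be told apart. The site at chr15:60882960-60885619 lay 299 bp from the nearest RORA start site, one of the internal starts of this 741 kb gene. It was called in 12 of 12 RCC4 and HepG2 libraries and in 0 of 38 HKC-8 libraries. Its places in RCC4 were 0.669% and 2.88% with HIF-1α, 3.41% and 9.53% with HIF-2α and 10.6% and 3.68% with HIF-1β. In HepG2 they were 4.52% and 0.89%, 1.58% and 2.04%, and 1.9% and 1.91%. Counting any RORA peak, 6 of 6 libraries of either line had one against 2 of 6 of wild-type HKC-8. The exact permutation p was 0.0833 for each, with adjusted values of 0.456 for RCC4 and 0.3 for HepG2. No gene passed in either line comparison, 0.0% of 4606 and of 6034 tested, where 318 and 705 had an unadjusted p under 0.05 and the smallest p that the design allows is 0.00926. The HKC-8 peaks lay at other, weaker sites. With peaks limited to a score of at least 100 the difference was 6 libraries in each line, with an exact permutation p = 0.00926 and adjusted values of 0.249 for RCC4 and 0.145 for HepG2. Of the 15 RORA sites, 12 were seen in 1 library each.

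NR1D1 and DBP were each called in 4 of 6 HepG2 libraries and 0 of 6 wild-type HKC-8 libraries. The exact permutation p was 0.0833 for each, and the adjusted value 0.3. The HepG2 calls came from both HIF-1β libraries, HIF-1α replicate 2 and HIF-2α replicate 1, and from neither of the other isoform libraries. These are the libraries with the larger share of peaks near start sites, and the part of that share in the calls was not tested. NR1D1 stood at 18.2% in the HIF-1α library, 58.9% in the HIF-2α library, and 16.9% and 20.2% with HIF-1β. DBP stood at 19.9%, 35.3%, and 32.7% and 24.5%. DBP was also called in 5 of 38 HKC-8 libraries and 1 RCC4 library, and both HIF-2α libraries without HIF-1α were among them, at 67.8% and 48.0%. PER1 had the same 4 HepG2 libraries. NR1D2 was called only in HKC-8, in 6 libraries, and its intronic site 18.4 kb from the start site was in both HIF-2α libraries without HIF-1α, at 45.7% and 48.1%.

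**Figure D4:**
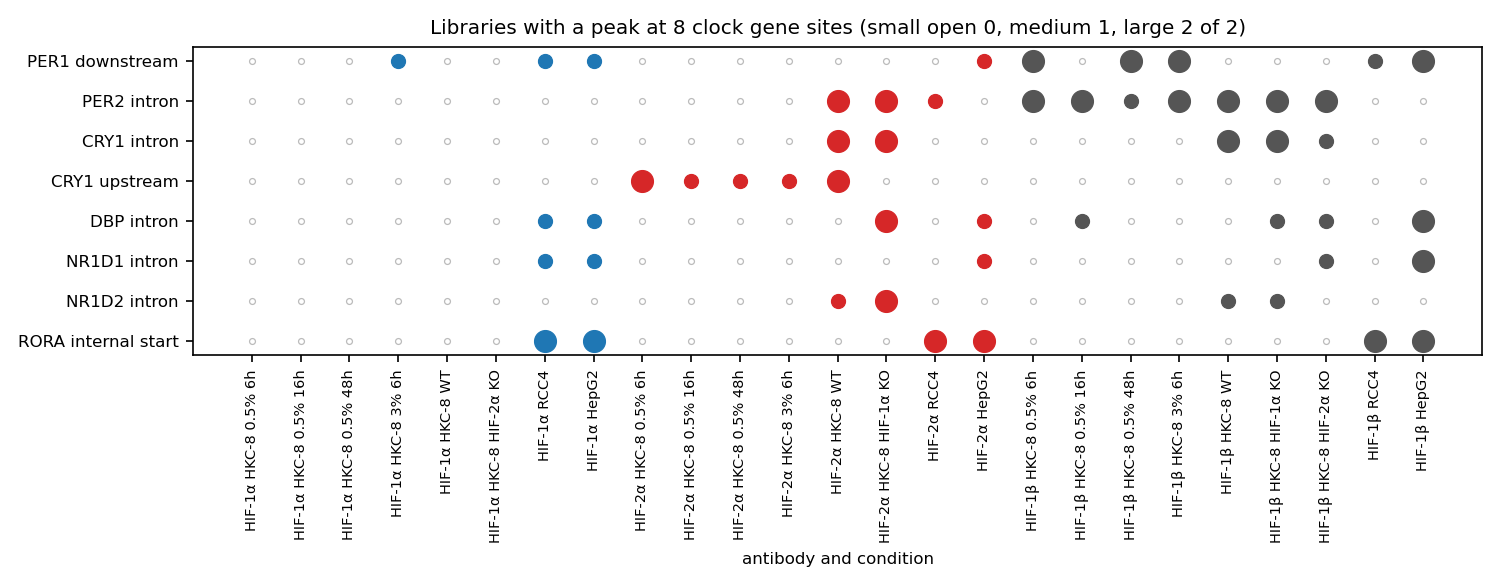
Rows are 8 sites at clock genes other than BHLHE40 and columns are antibody and condition; the size of a circle gives the number of the 2 libraries with a peak, and small open circles are 0. The RORA internal start is full in RCC4 and HepG2 for every antibody, and the CRY1 upstream site appears with HIF-2α alone.

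No clock gene passed the test for oxygen or time, where the smallest p that the design allows is 0.00926 before adjustment, so these comparisons do not show that calls were alike. BHLHE40 had a peak in 5 of 6 libraries at 3% oxygen and 6 of 6 at 0.5%, and in 6 of 6 at 6, 16 and 48 h. Its downstream site stood lower in the lists at 3% oxygen than at 0.5% for 6 h. With HIF-1β the places were 15.7% and 29.2% against 4.75% and 9.6%. With HIF-1α and with HIF-2α, 1 replicate at 3% lacked the site, and the other stood lower than both replicates at 0.5%. With HIF-1β the main PER1 site and the PER2 intronic site went the other way. Places at single sites were not tested for oxygen. CRY1 had a peak in 2 of 6 libraries at 6 h, and in 1 of 6 at 16 h, at 48 h and at 3% oxygen. PER2 had 2 of 6 in all 4 conditions, but not always at the same site. At 48 h the calls were HIF-1β replicate 1 at the intronic site, at 24.5%, and HIF-1α replicate 1 at another site, at 81.1%. In the other conditions both HIF-1β replicates had the intronic site. Over all genes 0.0% were called in each of these 3 comparisons, of 1768, 2023 and 1709 tested, with 9, 7 and 4 genes at an unadjusted p under 0.05.

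HRE cores lay within 100 bp of the centre at 23 of 37 clock gene sites, or 62.2% (95% exact interval 44.8 to 77.5%), beside 49.6% of all peaks and 21.3% of windows 2 kb away. Intervals cover counting error only. E-boxes lay at 5 sites, or 13.5%, beside 6.87% and 2.24%, with a 95% exact interval of 4.54 to 28.8% that holds the share of all peaks. E′-boxes lay at 7 sites, or 18.9%, beside 7.76% and 2.89%. An HRE core outside any E-box was at 20 sites, or 54.1%, beside 46.4% of all peaks. The AP-1 motif, TGACTCA or TGAGTCA, was at 5 sites beside 12.4% of all peaks. The D-box and the RORE were at 0 of 37 sites, and at 0.611% and 0.259% of all peaks. Among the 13 sites in at least 5 libraries, 11 had an HRE core, and the exceptions were the CRY1 upstream site and the BHLHE40 site at 16.0 kb. The share among all sites of all genes in at least 5 libraries is not given. The share of all peaks is no match for it, since peaks of every list were counted there without merging. The sites with an E-box near the centre were NR1D1 and DBP introns, and weaker ones of BHLHE40, PER1 and NR1D2 in 1 or 2 libraries.

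**Figure D5:**
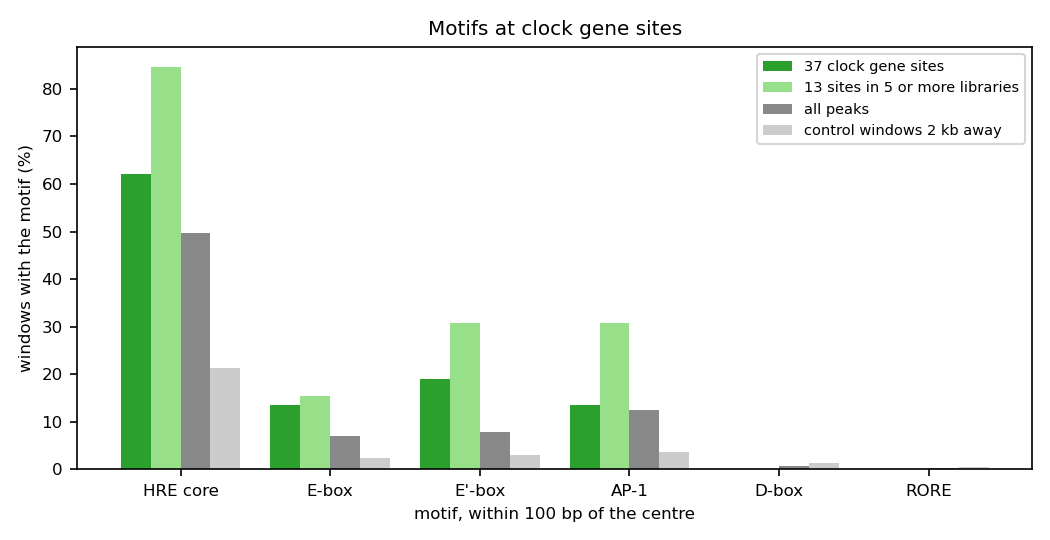
Bars give the percent of windows with each motif, on an axis from 0, for the 37 clock gene sites, the 13 in at least 5 libraries, all peaks and control windows 2 kb away. HRE cores are at 62.2% of clock gene sites and 49.6% of all peaks, and D-boxes and ROREs are at none of the clock gene sites. All peaks are counted without merging, and no bar shows the sites of all genes in at least 5 libraries.

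Of 20 other clock genes found in the annotation, 16 had a peak, with a median of 2 libraries, beside 59.1% of all genes with a peak. In both replicates of at least 3 groups were 6 of them, beside 13.5% of all genes. These were NFIL3, a repressor at the D-box, in 31 libraries, NOCT, a rhythmic phosphatase, in 21, HLF, a relative of DBP, in 17, CIART, a repressor of CLOCK and BMAL1, in 15, BTRC, a ubiquitin ligase subunit that acts on PER proteins, in 14, and CSNK1D, a kinase of PER proteins, in 8. CIART had 6 HIF-1α and 0 HIF-2α libraries. In the matched conditions that was 5 against 0, with an exact permutation p = 0.0417 and an adjusted value of 1.0. CSNK1D was called in 6 of 6 HepG2 and 0 of 6 wild-type HKC-8 libraries, with an exact permutation p = 0.00926 and an adjusted value of 0.167. BMAL1, TIMELESS and SIRT1 had no peak. CLOCK had 2 libraries.

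The genes whose pattern of best rank over the 50 libraries was most like that of BHLHE40, among 8646 genes, were ZHX2 (Spearman's rho 0.802), ERGIC1 (0.758), TGFBI (0.755), DNM2 (0.753) and NEK6 (0.752). All were called in 33 to 41 libraries. List length is shared by all genes of a library.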

How the data were processed

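ChIP-seq peak lists of 50 libraries were used. Per the labels, the authors trimmed reads with Trim Galore 0.3.3, aligned them to GRCh37 (hg19) with BWA 0.7.5a-r405, handled them with SAMtools 0.1.19, bedtools 2.17.0 and Picard 1.106, and called peaks with MACS in each library on its own. The deposited score of each peak runs from 50.0 to 3233.06 and was read as -10 times the base-10 logarithm of p, so that the lowest stands for 1e-05. The other deposited values are peak starts and ends. No reads or signal tracks were used. The 16 samples of input chromatin were left out of the analysis.

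Peaks were assigned to protein-coding genes of GENCODE 44 mapped to GRCh37. Motifs were searched on both strands. For each gene with a peak in at least 2 of the libraries compared, the number of libraries with a peak was compared by an exact two-sided permutation test within condition or within antibody, and p-values were adjusted over all genes tested by Benjamini-Hochberg, with a threshold of 0.05. The tests were checked on simulated data. Some items are not reported here. The replicates are separate ChIP-seq experiments per the study's methods. The members and lists were chosen with earlier results of these data known. All 10 members are named. Other clock genes are named where both replicates of at least 3 groups had a peak, and CLOCK, BMAL1, TIMELESS and SIRT1 were named after their values were seen, as was the rank test of sites. Genes like BHLHE40 are the 5 with the highest Spearman's rho. Alternatives were a score of at least 100, the upper 50% of each list, lists of equal length, the nearest TSS, genes of every biotype, a 10 kb limit, score rank, other filters, leaving out a replicate and a replicate block. Analyses used Python 3.11.15, numpy 2.4.6, pandas 2.3.3 and scipy 1.17.1.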

Additional observations from a re-analysis of the deposited data

How the results depend on the processing

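Of 363 alternative values, 353 were counted as unchanged. For single genes and sites this meant the same side of the threshold without turning direction. Counts of genes, sites or pairs, and motif shares, had no test of their own and only had to stay near the main value. Thus 52 gene and group pairs counted as unchanged at 40 with a score of at least 100. The HRE share of 62.2% did so at 73.7% among sites in at least 2 libraries. Among the 353, 14 became 0 and 12 left a main value of 0. In the comparison of HIF-1α with HIF-2α, the score rank percentile in place of calls gave 41 genes past the threshold, none of them among the 10 clock genes, where calls gave 0. PER2 in HepG2 minus wild-type HKC-8 turned from -1 to 3 libraries when peaks went to the nearest TSS. Over the 10 clock genes and 25 groups, gene and group pairs with a peak in both replicates numbered 52, of which BHLHE40 gave 24. Pairs with a peak in either replicate numbered 91, of which BHLHE40 gave 25. Per group, the share of all genes with a peak in both replicates ran from 0.263% to 13.6%. The share of pairs over all genes is not given. Over whole sites 83.8% held an HRE core and 29.7% an E-box. Whole sites ran to 4352 bp, and no share over all peaks is given for this search. The site rank test, added after the data were seen, called 52 sites, and 182, 368 and 278 among sites in at least 4, 7 and 10 libraries, and 91 without HepG2. The CRY1 upstream site, -33.5, had an adjusted value under the threshold only at the limit of 7 libraries. All of its 7 calls were with HIF-2α and were known when that limit was tried, so this is not used as a call. The cause of these changes was not tested.

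Replicate numbers were not used as pairs in the main tests. Replicate differences correlated between groups at -0.136 to 0.073 in 19 pairs, which cannot exclude that replicates with the same number shared a batch. The fit with the replicate block called 0 genes, as did leaving out each replicate (0 to 0 genes). These runs had little or no room to call a gene. With a replicate left out, the smallest exact permutation p was 0.0156 between isoforms and 0.25 for oxygen, time and RCC4. With the block it was 0.0312 for oxygen and time. Their 0 calls therefore do not show that the main result holds. CRY1 had an exact permutation p = 0.0156 with the block. The depth of the libraries is unknown, and a missing peak is no evidence of absence.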

Other observations

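Peaks within 50 kb of a clock gene start site but nearer to another protein-coding gene were most frequent at PER1. It had 63 such peaks in 21 libraries, all nearer to ALOXE3, BORCS6, HES7, TMEM107 or an unnamed gene. NR1D1 had 26 such peaks in 18 libraries, nearer to CASC3 or THRA, and NR1D2 had 16 in 13 libraries, nearer to NKIRAS1. BHLHE40, PER2, PER3 and RORA had 0.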
